A study of Mus musculus with 24 samples.

Results

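The genes described here are a group of 34 that covers amino acid transport across the cell membrane, the synthesis of asparagine, serine, proline and cysteine, the folate-bound one-carbon pathway, and further genes known as targets of the transcription factor ATF4. The members were listed by symbol, with no threshold on a measured value, and each was taken at the probe set annotated to it (where several were, at that of highest mean). Earlier results of these data were known when the list was made. Of the 34, 32 had a probe set of their own among the 22180 genes tested. The probe set of Slc6a9, a glycine transporter, also names another gene, so no value of it was used. Pycr1, the last enzyme of proline synthesis, was not analysed on the arrays.

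Affymetrix arrays measured RNA of naive CD4 T cells from mice, taken from TRIM28 knockout animals (KO) and wild-type littermates (WT) and analysed at 0 h without stimulation or after 4, 24 or 72 h on plates coated with anti-CD3 and with anti-CD28 in solution. The 24 arrays made 8 groups of 3, all from cells enriched on magnetic beads and then sorted. The labels do not state how TRIM28 was deleted, the age of the mice or the sort gate. They also do not say whether the arrays of a group came from separate animals. A p-value therefore covers only the scatter of these arrays, which may in part be technical. Values are log2 intensities after RMA, the authors' background correction, normalisation and summary. They carry no depth and compare arrays for a given probe set, not genes with each other. With cell mixtures in bulk RNA, fewer cells that express a gene and less of its RNA per cell cannot be told apart.

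Trim28 itself was lower by 2.62 to 3.58 log2 units on KO arrays at the 4 times (SE 0.13, n = 3 arrays a group), with no overlap at any time. The median of all genes lay between 3.59 and 3.76 on every array. The group means of Cd3e and Cd4, which mark CD4 T cells, lay between 10.4 and 12.1. Over all genes 1.76%, 3.3%, 3.9% and 2.56% were called higher in KO at 0, 4, 24 and 72 h, and 0.577%, 0.834%, 7.38% and 3.78% lower. The marker counts below are to be read beside these shares. Of the 7 measured CD4 T cell markers, 1 was called lower in KO at 0 h and none at 4 h, and at 24 h and again at 72 h 3 were called higher, with Cd3d farthest (0.40 and 0.37), and 1 lower, Trat1 (-0.69 and -0.64). Of the 2 CD8 T cell markers Cd8b1 was called lower at 24 and 72 h (-0.41 and -0.65). Summed linear intensities of 9 measured B cell markers were 213 to 432 on KO arrays against 135 to 189 on WT arrays at 24 h. At 72 h they were 156 to 301 against 118 to 136. Of the 9, 2 were called higher in KO at 0 h, none at 4 h, 2 at 24 h and 1 at 72 h. Summed intensities of 12 myeloid markers were 171 to 191 in KO against 162 to 172 in WT at 24 h and 137 to 157 against 172 to 186 at 72 h. Of the 12, 5 were called higher in KO at 0 h, 3 higher at 4 h and 1 lower at 72 h. Of the 5 natural killer cell markers, 1 was called lower in KO at 24 h and 2 at 72 h, where Eomes, also a T cell factor, had -3.15 while 3 of the 5 lay above 0 and the median was 0.06. None of 3 erythroid and platelet markers was called at any time. Xist, which is transcribed in female cells, read 3.03 to 4.79 on the arrays numbered 3 and 9.61 to 10.3 on those numbered 1 and 2, in both genotypes. Each group thus held both Xist levels, so its 3 arrays did not all come from the same cells. The part of the other cell types in the results was not tested.

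Amino acids are both the building material and a signal for a T cell that starts to divide. Cells that run short of them, or whose protein folding is disturbed, phosphorylate the initiation factor eIF2, which lowers translation in general and lets the ATF4 protein be made, a response called the integrated stress response. ATF4 then binds the genes of amino acid importers, amino acid synthesis, tRNA charging and a set of feedback regulators. Activated T cells are known to raise amino acid transporters and the mitochondrial folate enzymes, and the kinase mTORC1 also acts on ATF4 in dividing cells.

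ATF4 pairs with C/EBP proteins on a composite site, the CARE, and promoters of members were therefore searched for its letters, TGATGNAAN, on both strands. RefSeq promoters (build GRCm38.p6, 250 bases before to 50 after the start) were held for 29 of the 34 members. Within the 250 bases before the start the letters occurred in 5 of the 29 (17.2%) against 3.893% of 27025 genes, and over the whole window of 300 bases in 7 (24.1%) against 4.496%. The E-box CACGTG, a site of helix-loop-helix factors such as MYC, lay in 3 members (10.3%; Slc43a1, Aldh18a1 and Cbs) against 6.86% of genes in the 250 bases before the start. A match is a run of letters, not a known site. Members were listed in part as known ATF4 targets, so the choice itself favours a higher CARE share than over all genes. Among the CARE matches is Pycr1, which had no expression value. Sequences of the measured members with a match, and of Shmt1 and Mthfd2, are shown 5′ to 3′ along the gene's strand. The matches to the CARE letters are in capitals. Slc7a11 holds 2 matches, at 66 to 58 and 48 to 40 bases before the start, on opposite strands, in chr3:50443614-50443733 (minus strand). Asns holds 1 at 23 to 15 bases before the start in chr6:7693210-7693329 (minus strand), and Chac1 1 at 194 to 186 in chr2:119350992-119351111 (plus strand). For Vldlr (chr19:27216809-27216837, plus, before the later of its annotated starts), Slc1a4 (chr11:20332700-20332728, minus) and Trib3 (chr2:152344029-152344057, minus) only the match with 10 bases on either side is shown. The Vldlr match lies 201 to 193 bases before the start. That of Slc1a4 spans the start, from 5 bases before to 4 after, and that of Trib3 lies 14 to 22 bases after it. Shmt1 (chr11:60811266-60811385, minus) and Mthfd2 (chr6:83317605-83317724, minus) are shown over the 120 bases before the start, and neither holds the letters there. Shmt1 was called higher in KO at 72 h and lower at 24 h, and Mthfd2 higher at 0 h. Slc7a1, Slc7a6, Psat1, Slc3a2, Atf5 and Ddit3, called lower in KO at 24 or 72 h, also hold no match in the 300 bases. For Slc7a3, Slc7a5 and Cth, called lower too, no promoter was held. Whether the letters bear on the KO differences was not tested.
Slc7a11: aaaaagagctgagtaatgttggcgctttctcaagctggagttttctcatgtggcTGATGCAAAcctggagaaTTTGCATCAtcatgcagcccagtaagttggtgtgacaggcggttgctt
Asns: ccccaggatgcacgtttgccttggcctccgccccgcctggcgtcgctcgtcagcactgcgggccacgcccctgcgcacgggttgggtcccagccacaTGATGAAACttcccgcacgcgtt
Chac1: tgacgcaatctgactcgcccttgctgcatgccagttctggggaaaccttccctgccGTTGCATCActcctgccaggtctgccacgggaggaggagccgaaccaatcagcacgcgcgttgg
Vldlr: agcagcaataGTTGCATCAgcgctcctag
Slc1a4: tgcctcctgcGTTGCATCAtctccagcct
Trib3: ttagctcaggTTTACATCAgccgggcggg
Shmt1: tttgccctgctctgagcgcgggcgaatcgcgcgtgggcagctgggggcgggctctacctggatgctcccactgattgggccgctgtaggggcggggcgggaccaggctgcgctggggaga
Mthfd2: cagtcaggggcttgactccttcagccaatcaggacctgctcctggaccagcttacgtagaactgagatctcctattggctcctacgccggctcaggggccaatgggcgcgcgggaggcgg

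Stimulation raised nearly all members, some by 4 h and others only between 24 and 72 h. In WT cells 17 of 32 were higher at 4 h than at 0 h and 6 lower (limma, adjusted p below 0.05; 16.8% and 17.8% of all genes), 22 higher and 3 lower at 24 h (23.2% and 16.5%), and 30 higher at 72 h (22.2%), with median log2 changes of 0.45, 1.03 and 2.03. The KO cells gave 16 higher and 3 lower at 4 h (15.1% and 16%), 20 and 4 at 24 h (17.6% and 16.5%) and 31 higher at 72 h (21.1%), with medians of 0.33, 0.67 and 1.61. The 30 members raised at 72 h in WT were all among the 31 of KO. In both genotypes 25 members had their highest mean at 72 h. The members not called at 72 h in WT were Slc38a2 and Ddit4, and Ddit4 alone was not called in KO.

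**Figure D1:**
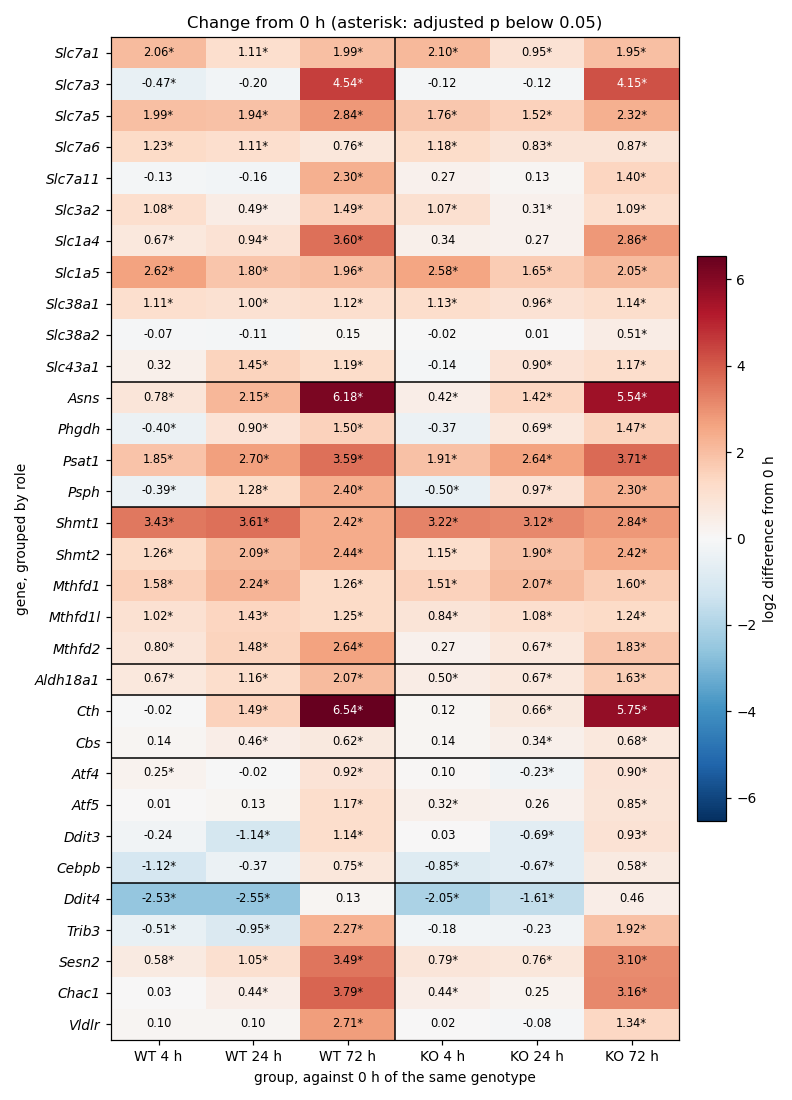
Heat map of the log2 change from 0 h for the 32 measured genes (rows, grouped by role) at 4, 24 and 72 h in WT and KO cells (columns; red is higher, blue lower; an asterisk marks an adjusted p below 0.05). Cth and Asns have the largest changes, 6.54 and 6.18 in WT at 72 h, and Ddit4 fell by 2.55 in WT at 24 h.

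Many members changed between 24 and 72 h. In that step 24 members rose and 3 fell in WT (11.6% and 15.8% of all genes), and 26 rose and 1 fell in KO (9.63% and 8.04%), a comparison chosen after the values by time had been seen. The 3 that fell in WT were Slc7a6, Shmt1 and Mthfd1, which had risen by 4 h. Cth, Slc7a3, Asns, Chac1 and Trib3 rose by over 3 log2 units within this step in WT.

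In KO cells part of the group was lower late in stimulation. At 0 h 1 member was called higher in KO (1.76% of all genes) and 1 lower (0.577%). At 4 h none of 32 passed the adjusted threshold (4.13% of all genes did), and 5 had an unadjusted p below 0.05. At 24 h 6 members were called, all lower (7.38%), and at 72 h 10 were lower (3.78%) and 1 higher (2.56%). The median difference over the 32 was -0.23 at 24 h and -0.22 at 72 h, beside -0.05 and 0.01 over all genes. The 3 KO arrays lay wholly below the 3 WT arrays for 17 members at 24 h (18.8% of all genes) and for 17 at 72 h (12%), and wholly above for 1 and 2 (8.37% and 12.5%). Only Cth was called lower at both times, which is 1 of the 6 at 24 h and 1 of the 10 at 72 h. The count at 24 h was 1 without KO array 1 of 24 h and 10 without WT array 3 of 24 h, and the count at 72 h was 4 without WT array 3 of 72 h and 7 without any 1 of the KO arrays of 72 h. With only the groups compared in the fit 18 members were called at 72 h, against 3 with the arrays numbered 1 and 2 alone and 2 where KO array 2 stood for KO.

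**Figure D2:**
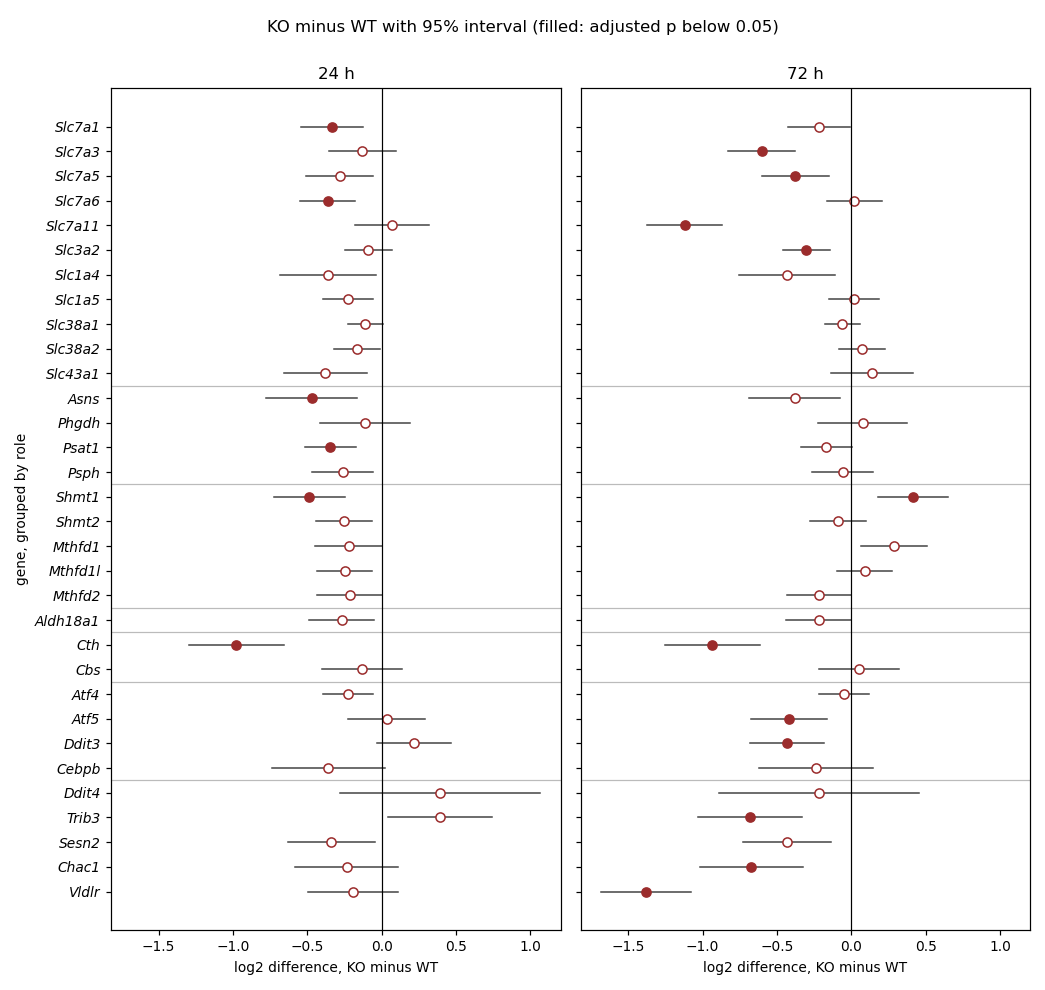
Log2 difference of KO minus WT at 24 h (left) and 72 h (right) for the 32 measured genes, with the 95% interval of the limma fit as a line and filled points where the adjusted p is below 0.05. At 24 h most points lie slightly left of 0 and Cth stands out at -0.98, whereas at 72 h Vldlr (-1.38), Slc7a11 (-1.12) and Cth (-0.93) lie farthest left and Shmt1 (0.42) lies to the right.

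Among the transporters, 11 were measured. Early risers were the glutamine and neutral amino acid exchanger Slc1a5, the arginine and lysine importer Slc7a1, and Slc7a5 with Slc3a2, the light and heavy chains of the importer of leucine and other large neutral amino acids. Slc1a5 rose 6.13-fold by 4 h in WT, from 6.28, 6.52 and 6.48 on the 3 arrays to 8.96, 9.10 and 9.07, and its KO arrays went from 6.36, 6.32 and 6.37 to 8.90, 9.0 and 8.90. The arrays of both genotypes overlapped at 0 and 4 h, and the KO and WT levels of Slc1a5 were not called different at any time. Its other probe set moved the same way at 4 h, from a mean of 3.92 to 5.66 in WT. Slc38a1, a sodium-coupled importer of glutamine, and Slc7a6, an exchanger of cationic for neutral amino acids, rose by 1.11 and 1.23 at 4 h in WT.

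Slc7a1 read 8.65, 8.71 and 8.51 on the WT arrays at 24 h and 8.25, 8.27 and 8.34 on the KO arrays, with no overlap. The KO level was lower by 0.33 (SE 0.10, adjusted p = 0.0333), and at 72 h the difference of -0.22 was not called (adjusted p = 0.306). Slc7a6 read 8.67, 8.51 and 8.47 in WT and 8.09, 8.19 and 8.29 in KO at 24 h, a difference of -0.36 (SE 0.09, adjusted p = 0.00826), and both genotypes lay between 8.19 and 8.26 at 72 h. The Slc7a1 call was lost without any of WT arrays 1 and 2 or KO arrays 1 and 2 of 24 h (adjusted p 0.089 to 0.127), and the Slc7a6 call without WT array 1 or KO array 1 of 24 h (0.06 and 0.0667).

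Slc7a5 read 10.81, 10.73 and 10.87 on the WT arrays at 72 h and 10.53, 10.28 and 10.46 on the KO arrays. The difference was -0.38 (SE 0.11, adjusted p = 0.0345). Its partner Slc3a2 read 10.50, 10.37 and 10.64 in WT and 10.17, 10.22 and 10.21 in KO, a difference of -0.30 (SE 0.08, adjusted p = 0.0134). For both chains every KO array lay below every WT array at 72 h, while at 4 h the arrays overlapped (differences of -0.09 and 0.08, not called). The rise of Slc3a2 from 0 to 72 h was smaller in KO by 0.40 (SE 0.11, adjusted p = 0.0365), a call lost when any of 9 arrays was left out (adjusted p up to 0.141). The Slc7a5 call was lost when any of 5 arrays was left out (adjusted p up to 0.194), and that of Slc3a2 without WT array 3 or KO array 1 of 72 h (0.134 and 0.0626).

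Late risers among the transporters were Slc7a3, a second importer of cationic amino acids, Slc7a11, the cystine importer that exchanges it for glutamate, and Slc1a4, a carrier of serine, alanine and cysteine. Slc7a3 lay between 2.64 and 3.34 on every array up to 24 h and then read 7.75, 7.65 and 7.95 in WT and 7.06, 7.31 and 7.17 in KO at 72 h. Its rise over 0 h was 23.3-fold in WT and 17.8-fold in KO. The KO level at 72 h was lower by 0.60 (SE 0.11, adjusted p = 0.000441), a call that no left-out array ended.

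Slc7a11, whose promoter carries 2 matches to the CARE letters, lay between 2.10 and 2.60 up to 24 h. At 72 h it read 4.84, 4.68 and 4.68 on the WT arrays and 3.30, 3.82 and 3.72 on the KO arrays. The highest KO array lay well below the lowest WT array, and the KO level was 2.17-fold lower (log2 difference -1.12, 95% interval -1.37 to -0.87, adjusted p = 3.12e-07). The rise since 24 h was 2.46 in WT and 1.27 in KO, and the difference of these rises was -1.19 (SE 0.17, adjusted p = 4.53e-05). The other probe set of Slc7a11 stayed at means of 2.21 to 2.38 in all 8 groups, so the change rests on 1 probe set, read at the low end of the scale. With both probe sets averaged the KO difference at 72 h was -0.60, and the differences in rise from 0 and 24 h were -0.47 and -0.59, all still called. Slc1a4 rose 12.1-fold by 72 h in WT and 7.25-fold in KO, and its KO difference at 72 h, -0.43, was not called (adjusted p = 0.117) though the arrays did not overlap.

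Slc38a2, a sodium-coupled carrier that cells raise when amino acids are scarce, was the transporter called at rest. It read 9.54, 9.58 and 9.37 on WT arrays at 0 h and 9.18, 9.16 and 9.29 on KO arrays, a difference of -0.28 (SE 0.08, adjusted p = 0.0423). That call was lost when any of 8 arrays was left out (adjusted p 0.0513 to 0.207) and with the array number as a fixed block (adjusted p = 0.0515). By 72 h the order had gone, with 9.74, 9.51 and 9.68 in WT and 9.75, 9.65 and 9.75 in KO. Slc43a1, a carrier of large neutral amino acids, rose by 1.45 at 24 h in WT and 0.90 in KO and was not called different between genotypes.

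Asparagine synthetase (Asns), which makes asparagine from aspartate and glutamine and is a classical ATF4 target, was among the most strongly raised members. The WT arrays at 0 h read 3.96, 3.74 and 3.93, those of 24 h read 5.88, 6.28 and 5.92, and those of 72 h read 10.09, 10.01 and 10.06. The KO arrays at 0 h read 4.40, 3.87 and 4.14, those of 24 h read 5.60, 5.29 and 5.78, and those of 72 h read 9.56, 9.73 and 9.74. The genotypes overlapped at 0 h, and every KO array lay below every WT array at 24 and 72 h. Asns thus rose 72.4-fold by 72 h in WT and 46.5-fold in KO. At 24 h the KO level was lower by 0.47 (SE 0.15, adjusted p = 0.0382) and at 72 h by 0.38, which was not called (adjusted p = 0.16). The call at 24 h was lost without WT array 2, KO array 1 or KO array 2 of 24 h (adjusted p 0.0888 to 0.221).

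The 3 enzymes that make serine from a glycolytic intermediate rose in different order. Psat1, the aminotransferase of the second step, rose by 1.85 as early as 4 h in WT, whereas Phgdh, the first enzyme, and Psph, the phosphatase that ends the path, fell by 0.40 and by 0.39 at 4 h before they rose to 1.5 and 2.40 above 0 h at 72 h. Psat1 read 8.26, 8.20 and 8.36 in WT and 7.87, 7.91 and 8.02 in KO at 24 h. It was lower in KO by 0.35 (SE 0.08, adjusted p = 0.00715), a call lost without KO array 1 of 24 h (0.0509), and by 72 h the difference was -0.17 and not called. The gap was not new at 24 h, since every KO array of Psat1 lay below every WT array at 0 and 4 h too. Those differences, -0.28 and -0.23, were not called, and the rise from 0 to 24 h differed by only -0.06, not called. Phgdh and Psph were not called different between genotypes at any time.

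The 5 enzymes of folate-bound one-carbon units rose from 4 h on in WT. Shmt1, which takes the carbon from serine in the cytosol, went from 4.95, 5.13 and 5.28 at 0 h to 8.49, 8.46 and 8.71 at 4 h in WT, a 10.8-fold rise. In KO it read 5.35, 5.12 and 4.88 and then 8.18, 8.31 and 8.53. At 24 h WT arrays read 8.79, 8.62 and 8.78 and KO arrays 8.08, 8.26 and 8.38, and at 72 h the order was turned, with 7.68, 7.51 and 7.42 in WT and 8.0, 7.94 and 7.93 in KO. The KO level was lower by 0.49 at 24 h (SE 0.12, adjusted p = 0.00575) and higher by 0.42 at 72 h (SE 0.12, adjusted p = 0.0258). Between these times Shmt1 fell by 1.19 in WT, while the KO value of -0.29 was not called (adjusted p = 0.0965), and the 2 steps differed by 0.90 (SE 0.16, adjusted p = 0.000626). The call at 24 h was lost without KO array 1 of 24 h (0.0583), and the call at 72 h without any of WT arrays 2 and 3 and the 3 KO arrays of 72 h (0.0624 to 0.153); that of the difference in steps was lost with none.

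Mthfd1, the cytosolic enzyme that interconverts the folate forms, behaved likewise in its late step: it fell between 24 and 72 h by 0.98 in WT and by 0.47 in KO, a difference of 0.51 (SE 0.15, adjusted p = 0.0369) that was lost when any of 7 arrays was left out (adjusted p up to 0.133). Its level differed between genotypes at no single time by the test. The mitochondrial enzymes Shmt2 and Mthfd1l were not called different between genotypes either, and Shmt2 rose 5.43-fold by 72 h in WT.

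Mthfd2, the mitochondrial dehydrogenase that is high in dividing cells, was the member called higher in KO at rest. It read 7.39, 7.65 and 7.83 on WT arrays and 8.29, 8.46 and 7.89 on KO arrays at 0 h, so that the lowest KO array lay just above the highest WT array. The difference was 0.59 (SE 0.11, adjusted p = 0.00118). No left-out array ended that call, but it was lost with only the groups compared in the fit (adjusted p = 0.0901). At 24 h the arrays read 9.09, 9.11 and 9.10 in WT and 8.85, 8.92 and 8.87 in KO, and at 72 h 10.25, 10.27 and 10.26 and 10.02, 10.11 and 9.996, with KO below WT on every array. Neither of these later differences, -0.22 each, was called. The rise from 0 h was smaller in KO by 0.81 at 24 h (SE 0.15, adjusted p = 0.00159) and by 0.81 at 72 h (adjusted p = 0.001), and no left-out array ended either call. At 0 h the summed intensities of the B cell markers were 248 to 452 on KO arrays against 140 to 303 on WT arrays. Those of the myeloid markers were 227 to 399 against 203 to 231, and both ranges overlapped. Of 9 B cell markers 2 were called higher in KO, and of 12 myeloid markers 5 (1.76% of all genes), while 4 of the 12 lay below 0. The part of these cells in the resting Mthfd2 level was not tested.

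Of the proline pathway only Aldh18a1, its entry enzyme, was measured. It rose 4.19-fold by 72 h in WT, and its KO differences of -0.27 at 24 h and -0.22 at 72 h were not called, with no overlap of arrays at either time.

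Cystathionine gamma-lyase (Cth), which releases cysteine in the last step of transsulfuration, had the largest rise of the 32 measured members. It lay between 2.22 and 2.71 on every array at 0 and 4 h. At 24 h WT arrays read 4.22, 3.65 and 4.25 and KO arrays 3.05, 3.11 and 3.03, and at 72 h WT arrays read 9.08, 9.16 and 9.02 and KO arrays 7.78, 8.40 and 8.27. The rise to 72 h was 93-fold in WT and 53.8-fold in KO. The KO level was 1.97-fold lower at 24 h (log2 difference -0.98, SE 0.16, adjusted p = 0.000131) and 1.91-fold lower at 72 h (-0.93, adjusted p = 0.000189), calls that no left-out array ended. From 24 to 72 h it rose by 5.04 in WT and by 5.09 in KO, so the gap present at 24 h was still there at 72 h. The rises from 0 h differed by -0.83 at 24 h (adjusted p = 0.0237) and -0.79 at 72 h (adjusted p = 0.0411), and these calls were lost when any of 6 and of 9 arrays was left out (adjusted p up to 0.0728 and 0.154). Cbs, the enzyme before it in the path, lay between 2.84 and 3.72 on every array and was not called different between genotypes.

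The transcript of Atf4 itself rose by 72 h in both genotypes, by less than the median member (2.03 in WT and 1.61 in KO). It read 8.68, 8.58 and 8.49 on WT arrays at 0 h and 9.49, 9.44 and 9.57 at 72 h, a rise of 0.92 (SE 0.08, adjusted p = 2.88e-10). KO arrays read 8.49, 8.60 and 8.57 and then 9.31, 9.49 and 9.55, a rise of 0.90. The genotypes overlapped at both times. At 4 h the KO arrays (8.55, 8.70 and 8.70) all lay below the WT arrays (8.83, 8.87 and 8.79), and at 24 h they overlapped. The KO difference was called at none of the 4 times, with -0.03, -0.18, -0.23 and -0.05 in order. At 72 h the 95% interval of the difference ran from -0.21 to 0.12. ATF4 is set in large part by translation, which arrays do not measure.

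The related factor Atf5, also translated under eIF2 phosphorylation, and Ddit3, which encodes the stress factor CHOP, were lower in KO at 72 h. Atf5 read 5.64, 5.59 and 5.91 in WT and 5.18, 5.47 and 5.24 in KO (difference -0.42, SE 0.12, adjusted p = 0.0408). Ddit3 fell by 1.14 up to 24 h in WT and then read 7.71, 7.61 and 7.92 at 72 h, against 7.09, 7.36 and 7.49 in KO (difference -0.43, SE 0.12, adjusted p = 0.0297). Its rise from 24 to 72 h was 2.28 in WT and 1.63 in KO, which differed by -0.65 (SE 0.17, adjusted p = 0.0167). Each of the calls at 72 h was lost when any of 4 arrays was left out, with adjusted p up to 0.274 for Atf5 and 0.226 for Ddit3, and that of the Ddit3 rise with any of 3 (up to 0.0667). Cebpb, a partner of ATF4 on its composite site, fell by 1.12 at 4 h in WT and was not called different between genotypes.

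The remaining members are stress regulators and other targets. Ddit4, an inhibitor of mTORC1, fell by 2.53 at 4 h and by 2.55 at 24 h in WT and differed from 0 h by 0.13 at 72 h, which was not called. KO array 1 at 0 h read 5.52 beside 7.19 and 7.90 on the other KO arrays, so its resting value is the least certain of the group (SE of a difference 0.33). Sesn2, a leucine sensor that holds mTORC1 back, rose 11.2-fold by 72 h in WT and 8.6-fold in KO, and its KO difference at 72 h of -0.43 was not called (adjusted p = 0.0788).

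Trib3, a pseudokinase that curbs ATF4 and CHOP, read 4.92, 5.29 and 4.88 on resting WT arrays, 4.40, 4.02 and 3.83 on those of 24 h, and 7.30, 7.01 and 7.59 on those of 72 h. KO arrays read 5.05, 4.66 and 4.40, then 4.47, 4.64 and 4.32, and then 6.84, 6.43 and 6.58. The genotypes overlapped at 24 h, and at 72 h every WT array lay above every KO array. Trib3 was lower in KO by 0.68 at 72 h (SE 0.17, adjusted p = 0.0118), and its rise since 24 h was smaller by 1.07 (SE 0.24, adjusted p = 0.00486). Chac1, which degrades glutathione, read 6.94, 6.69 and 7.22 in WT and 6.34, 6.62 and 5.87 in KO at 72 h, a difference of -0.67 (SE 0.17, adjusted p = 0.0116). The call at 72 h was lost for Trib3 without WT array 3 or KO array 2 (0.119 and 0.0796), and for Chac1 without WT array 3 or KO array 3 (0.113 and 0.141), while the Trib3 difference in rises was lost with none.

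Vldlr, a lipoprotein receptor known as an ATF4 target, had the largest KO difference of the 32 measured members. It lay between 2.35 and 2.95 on every array up to 24 h and then read 5.32, 5.24 and 5.47 in WT and 3.97, 4.28 and 3.64 in KO. The KO level at 72 h was 2.6-fold lower (log2 difference -1.38, 95% interval -1.68 to -1.08, adjusted p = 2.13e-07). Its rise from 0 h was 2.71 in WT and 1.34 in KO, a difference of -1.37 (SE 0.21, adjusted p = 9.27e-05), and that from 24 h differed by -1.19 (adjusted p = 0.00044). No left-out array ended these calls.

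**Figure D3:**
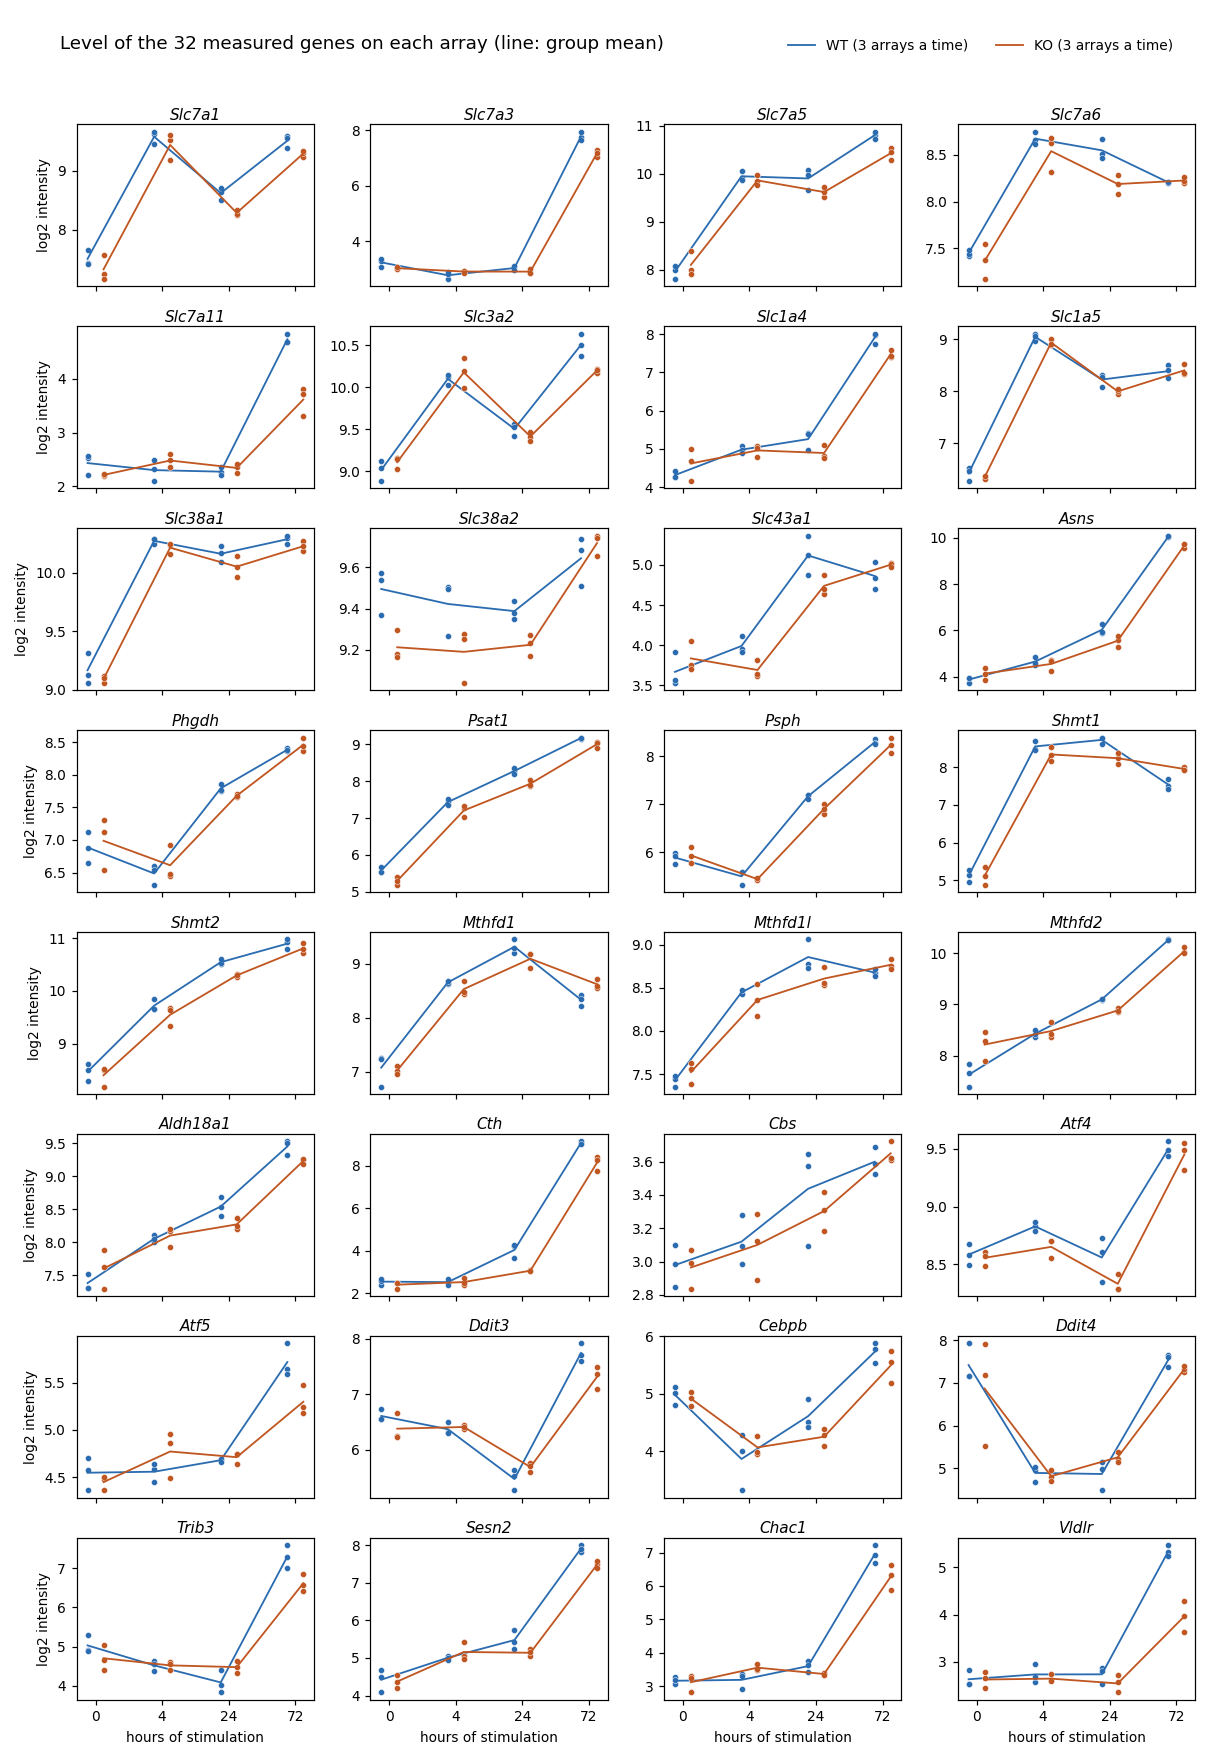
Log2 intensity of each of the 32 measured genes on every array (points) against hours of stimulation, with group means joined by lines (WT blue, KO orange, 3 arrays a time). The times are evenly spaced and each panel has its own vertical scale, so heights compare only within a panel; Slc7a11 and Vldlr stay flat up to 24 h and part by genotype at 72 h, whereas Shmt1 crosses between 24 and 72 h.

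The response to stimulation was then compared between genotypes as a whole. From 0 to 4 h no member differed by the test (0.726% of all genes did), with 4 at an unadjusted p below 0.05. From 0 to 24 h 3 members were called (5.87%), Asns (-0.73, SE 0.21, adjusted p = 0.0372), Mthfd2 and Cth, and from 0 to 72 h 5 were called (3.91%), Slc7a11 (-0.90, SE 0.17, adjusted p = 0.00159), Slc3a2, Mthfd2, Cth and Vldlr. All of them had the smaller rise in KO. From 24 to 72 h the steps differed for 6 members, smaller in KO for Slc7a11, Ddit3, Trib3 and Vldlr (3.56% of all genes) and higher in KO for Shmt1 and Mthfd1 (4.9%), whose WT levels fell in that step. The Asns call was lost when any of 7 arrays was left out (adjusted p 0.0506 to 0.117). The number called from 0 to 24 h was 1 without KO array 1 of 24 h and 6 without KO array 3 of 0 h; that from 0 to 72 h was 3 without WT array 2 of 0 h, KO array 1 of 0 h, WT array 3 of 72 h or KO array 1 of 72 h, and 8 without KO array 3 of 0 h.

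**Figure D4:**
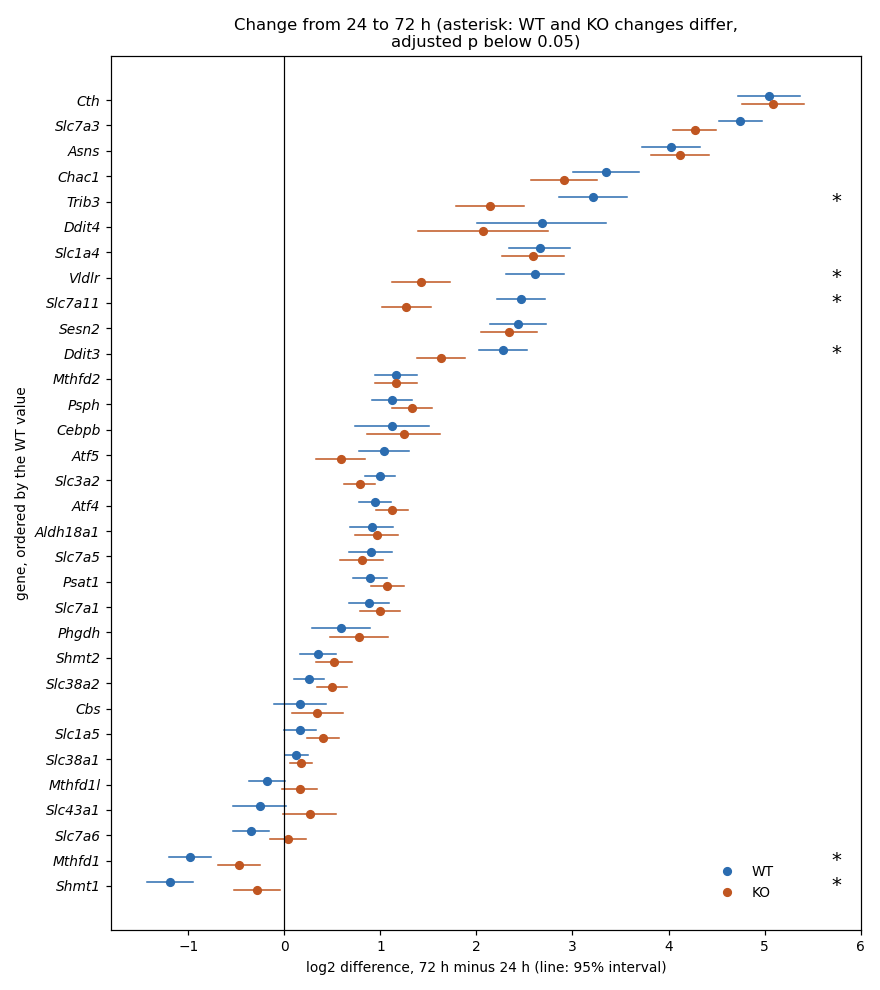
Log2 change from 24 to 72 h in WT (blue) and KO (orange) for the 32 measured genes, ordered by the WT value, with 95% intervals as lines and an asterisk where the 2 genotypes' changes differ at an adjusted p below 0.05. Cth, Asns and Mthfd2 rise by nearly the same amount in both genotypes, while Trib3, Vldlr, Slc7a11 and Ddit3 rise less in KO and Shmt1 and Mthfd1 fall less.

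Genes next to the members in these pathways were counted with the same fit. Of 18 measured aminoacyl-tRNA synthetases, the enzymes that charge tRNAs and include many ATF4 targets, 16 rose at 4 h and all 18 at 24 and 72 h in WT (16.8%, 23.2% and 22.2% of all genes). In KO 10 of the 18 were lower at 24 h, where 7.38% of all genes were, among them Farsa (-0.40), Tars (-0.40) and Eprs (-0.39), with a median of -0.29, and 1 was lower at 72 h, Eprs (-0.27; 3.78% of all genes). Of the 18, 1 was lower at 4 h (0.834% of all genes). Of 15 measured regulators of the integrated stress response, 5 were lower in KO at 24 h (7.38% of all genes) and 3 at 72 h (3.78%), with medians of -0.20 and -0.12. Eif4ebp1, an inhibitor of translation that ATF4 is known to induce, was higher in KO at 4 h (0.59, adjusted p = 0.00574), the 1 of the 15 called at that time (3.3% of all genes). It was lower at 24 h (-0.40, adjusted p = 0.0426). Those called at 72 h were Atf3, a factor induced after ATF4 (-0.82), Eif2ak2, the eIF2 kinase activated by double-stranded RNA (-0.78), and Ppp1r15a, which directs the phosphatase of eIF2 (-0.73). Of 28 other enzymes of amino acids, folate and polyamines, 5 were lower in KO at 24 h (7.38% of all genes) and 2 at 72 h (3.78%). Their medians were -0.19 and 0.01. The 2 of 72 h were the mitochondrial folate dehydrogenase Aldh1l2 (-0.92) and the aminotransferase Gpt2 (-0.45). Asl, an enzyme of arginine synthesis, was the 1 of the 28 called higher in KO at 0 h (0.57; 1.76% of all genes). Bcat1, which starts the breakdown of branched-chain amino acids, was among those lower at 24 h (-0.52). Of 33 further amino acid transporters, 2 were lower and 1 higher in KO at 24 h (7.38% and 3.9% of all genes) and 2 lower at 72 h (3.78%), counts near those shares. Those of 72 h were Slc1a1 (-0.64) and Slc38a7 (-0.38), with Slc43a3 (-0.56) among those lower at 24 h and Slc38a3 (0.42) the 1 called at 4 h, where it was higher (3.3% of all genes). The 23 genes of amino acid sensing by mTORC1 had 1 higher in KO at 0 h (1.76% of all genes), 4 higher at 4 h (3.3%), 5 higher and 2 lower at 24 h (3.9% and 7.38%) and 3 higher and 1 lower at 72 h (2.56% and 3.78%). Their medians were 0.11, 0.07, -0.11 and 0.10 in order of time. Among them were Sesn3 (0.84 at 24 h), Castor2 (0.87 at 24 h) and Rragd (0.77 at 72 h), and Rragb (-0.89 at 24 h).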

How the data were processed

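Microarrays of 24 samples were used at the level the authors deposited them: log2 intensities per probe set after RMA with the oligo package in R 3.1.0, per the submitters' processing notes. The sources used here give no version of oligo or RMA, no summary level and no filter. Of 41345 probe sets, 23521 named 1 gene in the platform annotation, 1814 several and 16010 were unlisted there; symbols were updated by Entrez ID, and the probe set with the highest mean stood for a gene, which left 22180 genes.

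All 24 arrays were fitted in limma 3.58.1 (R 4.3.3) with 8 group means, empirical Bayes with a mean-variance trend (16 residual and 8.81 prior degrees of freedom), two-sided tests and Benjamini-Hochberg adjustment over all genes, with a threshold of 0.05. Groups came from the sample titles. No filter on low values was applied. The script was tested on simulated data.

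The members, the neighbouring gene lists and the marker lists were chosen with earlier results of these data known, all 34 members were described by role, and of each neighbouring list the rule named up to 3 genes with the largest called KO difference. Slc38a7, Gpt2, Eif4ebp1 and Rragd fall outside that rule and were chosen after their values were seen. Promoters came from the RefSeq table of GRCm38.p6. The 34 alternatives changed the choice of probe set, the filter, the normalization, the eBayes prior or trend, the groups in the fit, a block for the array number, or the arrays used.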

Additional observations from a re-analysis of the deposited data

Results flagged for a closer look

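Each result here is a response to stimulation that differed between KO and WT by the interaction term of the limma fit (log2, KO minus WT response; adjusted p over all genes). From 0 to 24 h the response was smaller in KO for Asns (-0.73, adjusted p = 0.0372), Mthfd2 (-0.81, adjusted p = 0.00159) and Cth (-0.83, adjusted p = 0.0237). From 0 to 72 h it was smaller for Slc7a11 (-0.90, adjusted p = 0.00159), Slc3a2 (-0.40, adjusted p = 0.0365), Mthfd2 (-0.81, adjusted p = 0.001), Cth (-0.79, adjusted p = 0.0411) and Vldlr (-1.37, adjusted p = 9.27e-05). From 24 to 72 h it was smaller for Slc7a11 (-1.19, adjusted p = 4.53e-05), Ddit3 (-0.65, adjusted p = 0.0167), Trib3 (-1.07, adjusted p = 0.00486) and Vldlr (-1.19, adjusted p = 0.00044). The fall between 24 and 72 h was smaller in KO for Shmt1 (0.90, adjusted p = 0.000626) and Mthfd1 (0.51, adjusted p = 0.0369). The Mthfd2 differences go with a higher KO level at 0 h, and the others were not called at 0 h. Means at 0 h were also higher in KO for Asns (0.26) and Slc3a2, and lower for Slc7a11, Cth and Vldlr. The steps from 24 to 72 h start at 24 h, where Shmt1 was called lower in KO (-0.49). At 24 h KO and WT means, not called different, were 4.48 and 4.09 for Trib3 and 5.69 and 5.47 for Ddit3. They were 2.34 and 2.27 for Slc7a11, 2.54 and 2.73 for Vldlr, and 9.09 and 9.31 for Mthfd1.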

How the results depend on the processing

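In 34 other settings no named difference changed direction. Cth at 24 h, Slc7a11 and Vldlr at 72 h and both Mthfd2 response differences stayed past the threshold in every setting in which they were tested; a filter at the 40th percentile (log2 3.24) left out Slc7a11 and Vldlr. Of 33 named gene results, 33 kept their call under robust eBayes and when probe sets were averaged per gene (Slc7a11 at 72 h moved from -1.12 to -0.60), 27 of 27 with the filter, 28 with quantile normalization again, 27 without the trend and 29 with only the groups compared. The arrays numbered 1 and 2 kept 16. A fit in which KO array 2 stood for KO, which assumes that KO varies like the other groups, kept 7. The cause of each lost call was not tested beyond the smaller number of arrays in the last 2.

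Counts of members called that moved by over 1.5 times were these. KO against WT at 0 h gave 1 without the trend, 0 with only the groups compared, 1 with the replicate block (numbers 1 to 3) and 1 with KO array 2 alone. At 4 h arrays 1 and 2 gave 1. At 24 h KO array 2 gave 2. At 72 h only the groups compared gave 18, arrays 1 and 2 gave 3 and KO array 2 gave 2. Response differences gave 1 with arrays 1 and 2 from 0 to 4 h; 5 with the filter and 1 with KO array 2 from 0 to 24 h; 1 with KO array 2 from 0 to 72 h; and 3 with arrays 1 and 2 and 0 with KO array 2 from 24 to 72 h. What the numbers stand for is not stated in the labels, though arrays 3 differ from the others in Xist: the fixed replicate block kept 32 of 33 gene calls (lost was Slc38a2 at 0 h), a random one (correlation -0.0075) 33, and deviations of the 12 same-numbered WT and KO pairs correlated at 0.03 to 0.17, above 0.1 in 6, each array best with its own number, a hint from the data and not the design.

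Leaving out each array gave 1 to 3 (0 h), 0 to 1 (4 h), 1 to 10 (24 h) and 4 to 12 (72 h) members called in KO against WT; 21 to 23, 24 to 26 and 30 to 31 for WT and 17 to 20, 22 to 24 and 30 to 31 for KO at 4, 24 and 72 h against 0 h; 0 to 1, 1 to 6 and 3 to 8 for the response differences; and 26 to 27 (WT), 26 to 28 (KO) and 4 to 7 (difference) for 72 h against 24 h. Values near the bottom of the scale, such as those of Slc7a11, Vldlr, Cth and Slc7a3 before 72 h, may understate fold changes.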
